A study of Rattus norvegicus with 2 samples.

Results

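Dopamine is the transmitter by which the hypothalamus holds back prolactin, and the genes described here make it, move it and receive it. Tyrosine hydroxylase (Th) carries out the rate-limiting step from tyrosine to L-DOPA with a pterin cofactor whose synthesis starts with GTP cyclohydrolase (Gch1), and aromatic L-amino acid decarboxylase (Ddc) turns L-DOPA into dopamine. The vesicular monoamine transporter (Slc18a2) loads dopamine into vesicles, the dopamine transporter (Slc6a3) takes it back from outside the cell, and Drd2, Drd3 and Drd4 are the receptors of the D2 family, which couple to inhibitory G proteins. In the arcuate nucleus, tuberoinfundibular neurons release dopamine towards the pituitary, where Drd2 on lactotrophs restrains prolactin secretion.

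The members are the 8 genes whose symbol in the deposited annotation is Th, Ddc, Gch1, Slc6a3, Slc18a2, Drd2, Drd3 or Drd4, of 22777 genes in all, and they are covered by 10 of 26324 mRNA transcripts. The study compared the hypothalamus of female Sprague Dawley rats before puberty (postnatal day 25) and at puberty (postnatal day 35, first estrus), to find transcripts that take part in puberty onset. Tissue came from 3 rats per stage, but the tables hold 1 column of FPKM (fragment numbers divided by transcript length in kilobases and by library size) per stage, so each stage is 1 library here and no value has a replicate or a p-value. The tissue was whole hypothalamus, in which fewer cells of a type and less RNA per cell cannot be told apart, and the day of sampling, the age and the stage of the rats cannot be told apart either.

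The low FPKM of genes with 1 transcript fell on even steps, from which the size of 1 fragment was derived. FPKM was scaled to 20760000 fragments before puberty and 16220000 at puberty, and 1 fragment on a 2000 nt transcript was worth 0.0276 and 0.0353 FPKM. All intervals below are 95% intervals from these fragment numbers and cover counting error only, not the spread between rats. Of the hypothalamic markers, 15 of 15 were above 0 in at least 1 library, as were 18052 of all 22777 genes and 9 of 9 striatum markers. This count therefore does not tell the tissue from its neighbours. Among the hypothalamic markers, Pmch (melanin-concentrating hormone) had 1675 and 2723 FPKM and Oxt (oxytocin) 411 and 686 FPKM before puberty and at puberty. Both of these, and Kiss1 at 1.46 and 3.78 FPKM, were themselves past 1.5-fold higher in FPKM + 1 at puberty.

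Transcript ends and promoters were not measured in these libraries, and the promoters of the members serve as context for the values that follow. All 8 members matched the RefSeq promoter table (GRCr8, a later build than that of the files), with 3 alternative starts for Ddc. The 250 bases before the start are shown 5′ to 3′ on the gene's strand for Th and Slc6a3, whose values moved by the same ratio, for Slc18a2, which moved least among the genes of synthesis and transport, and for the most upstream start of Ddc. Capitals mark the cAMP response element TGACGTCA, a palindrome, in Th and Slc18a2, and the reverse complement of AAAGGTCA, the element of the Nr4a nuclear receptors, in Ddc.
Th, chr1:207508219-207508468, minus strand: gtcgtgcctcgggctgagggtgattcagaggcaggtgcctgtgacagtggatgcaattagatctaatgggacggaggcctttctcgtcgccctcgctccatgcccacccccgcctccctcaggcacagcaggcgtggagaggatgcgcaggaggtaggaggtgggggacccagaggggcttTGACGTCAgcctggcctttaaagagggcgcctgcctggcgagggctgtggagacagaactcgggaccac
Slc6a3, chr1:31578963-31579212, minus strand: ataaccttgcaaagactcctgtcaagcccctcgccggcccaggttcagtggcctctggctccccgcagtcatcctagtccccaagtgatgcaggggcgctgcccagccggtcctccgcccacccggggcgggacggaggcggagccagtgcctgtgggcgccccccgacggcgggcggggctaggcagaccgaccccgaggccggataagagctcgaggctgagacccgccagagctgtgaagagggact
Slc18a2, chr1:268399771-268400020, plus strand: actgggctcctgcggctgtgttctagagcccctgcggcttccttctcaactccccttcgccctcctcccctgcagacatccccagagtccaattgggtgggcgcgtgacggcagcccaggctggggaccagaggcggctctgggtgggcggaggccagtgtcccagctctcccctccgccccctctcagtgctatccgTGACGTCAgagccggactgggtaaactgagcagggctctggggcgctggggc
Ddc, chr14:90682784-90683033, minus strand: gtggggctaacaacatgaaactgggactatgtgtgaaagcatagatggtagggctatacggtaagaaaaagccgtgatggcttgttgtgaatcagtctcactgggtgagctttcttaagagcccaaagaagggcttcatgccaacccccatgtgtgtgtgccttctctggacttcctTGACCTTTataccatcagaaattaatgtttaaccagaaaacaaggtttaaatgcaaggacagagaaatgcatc

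Searched on both strands, TGACGTCA occurred in 1.59% of 33469 promoter windows of this length, and among the windows of the members in those of Th, 69 to 62 bases before the start, and Slc18a2, 52 to 45 bases before it. AAAGGTCA occurred in 1.24% of all windows and in 1 of the 3 windows of Ddc, 73 to 66 bases before its start. That window, the one shown, belongs to the most upstream start, and which Ddc start was used in these libraries was not measured. The GC box GGGCGG was common, in 30.5% of all windows, and the Slc6a3 window held 3 of them and no TGACGTCA. A match is a description of letters, and no binding was measured here.

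Th, the gene of the rate-limiting enzyme, had 16.4 FPKM before puberty (514 fragments, interval 15.01 to 17.9) and 30.7 FPKM at puberty (753 fragments, interval 28.5 to 32.9). Its level in the pubertal library was 1.87 times that in the prepubertal library (interval 1.67 to 2.102), a log2 ratio of FPKM + 1 of 0.86. Differences are given in this way throughout, as log2 of (pubertal FPKM + 1) over (prepubertal FPKM + 1), so that positive values are higher at puberty.

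Ddc, the decarboxylase that serotonin and dopamine cells share, had the highest level of the 8 genes in both libraries, 30.6 FPKM before puberty (952 fragments) and 46.5 FPKM at puberty (1126 fragments) over its 3 transcripts. The ratio was 1.52 (interval 1.39 to 1.65), and the log2 ratio of 0.59 lies just past the 1.5-fold line at 0.585. The 1956 nt transcript went from 19.1 to 28.5 FPKM and the 1379 nt transcript from 11.4 to 17.8 FPKM, ratios of 1.49 and 1.57, while the 5093 nt transcript stayed at or below 0.171 FPKM. The share of the 1956 nt transcript in the gene's FPKM was 62.5% before puberty and 61.3% at puberty, so both main transcripts were higher by a like ratio.

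Gch1, the entry enzyme of pterin synthesis, was lower in level than the enzymes it serves, at 4.12 FPKM before puberty (65 fragments) and 5.81 FPKM at puberty (72 fragments). Its ratio of 1.41 had an interval of 0.9996 to 2.01, so at this depth the direction is not clear of counting error.

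Slc6a3, the dopamine transporter, had 13.01 FPKM before puberty (467 fragments, interval 11.9 to 14.2) and 24.4 FPKM at puberty (687 fragments, interval 22.6 to 26.3). The ratio was 1.88 (interval 1.67 to 2.12) and the log2 ratio 0.86, next to the values of Th. Slc18a2, the vesicular transporter, had 19.5 FPKM before puberty (1075 fragments, interval 18.3 to 20.7) and 23.0 FPKM at puberty (992 fragments, interval 21.6 to 24.5). Its ratio of 1.18 (interval 1.08 to 1.29) was the smallest of the 5 genes of synthesis and transport.

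Among the receptors, Drd2, the autoreceptor of dopamine neurons and the receptor of lactotrophs, had 2.88 FPKM before puberty (144 fragments) and 3.74 FPKM at puberty (146 fragments). The ratio was 1.30 (interval 1.02 to 1.65) and the log2 ratio 0.29. Drd3 rested on 12 fragments before puberty and 6 at puberty, 0.472 and 0.301 FPKM, and the interval of its ratio, 0.197 to 1.84, covers both directions. Drd4 was listed at 0 in both libraries, and a count of 0 allows up to 3 fragments, 0.124 FPKM before puberty and 0.158 FPKM at puberty. D2 family receptor RNA in these libraries was thus mostly Drd2, whose FPKM was 6.11 times that of Drd3 before puberty and 12.4 times at puberty.

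**Figure D1:**
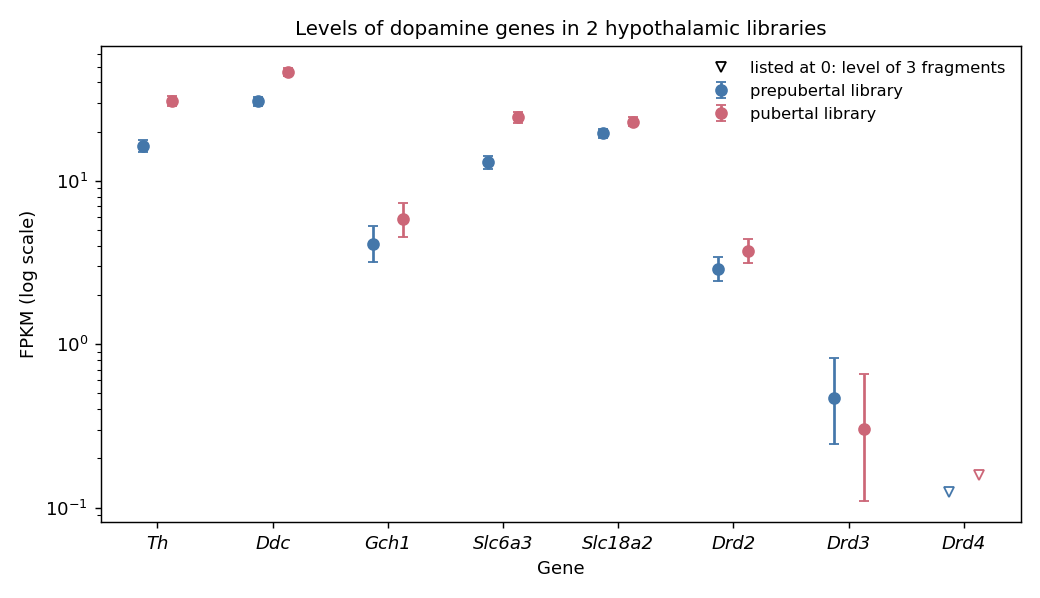
Level of each dopamine gene in FPKM (log axis) in the prepubertal and the pubertal library, with 95% counting intervals, and open triangles at the level of 3 fragments where a gene was listed at 0. Th, Ddc and Slc6a3 stand clearly higher at puberty, Slc18a2 slightly, and the receptors lie below the genes of synthesis and transport.

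In FPKM, which is per length, the order before puberty was Ddc, Slc18a2, Th, Slc6a3, Gch1, Drd2, Drd3 and Drd4. The counting intervals of neighbours in this order overlapped for Gch1 and Drd2 alone. At puberty Th and Slc6a3 had passed Slc18a2, and the order was Ddc, Th, Slc6a3, Slc18a2, Gch1, Drd2, Drd3 and Drd4, where the intervals overlapped between Slc6a3 and Slc18a2 and between Drd3 and Drd4. The level of Slc6a3 was 0.793 times that of Th before puberty and 0.797 times at puberty. Slc18a2, in contrast, went from 1.19 times the level of Th to 0.750 times.

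Of the 8 members, 3 were at least 1.5-fold higher in FPKM + 1 at puberty (Th, Slc6a3 and Ddc) and 0 at least 1.5-fold lower. Ddc lay at 1.501-fold, and with its most abundant transcript alone (log2 ratio 0.55) or after centring by transcript length (0.56) it was below the line, which left 2 members. Of all 22777 genes, 1.43% were that much higher and 1.86% that much lower. Among the 13804 genes with a mean FPKM of at least 1, the share higher was 1.77% and the share lower 2.41%, and 6 members belong to this set. In that set, 0.609% of genes had a log2 ratio at or above that of Th, 0.616% at or above that of Slc6a3 and 1.77% at or above that of Ddc. The median log2 ratio of the 8 members was 0.35, beside 0.00 over all genes. It was 0.50 over the members with a mean FPKM of at least 1, and 0.69 with the libraries scaled to equal Actb, which moved the median of all genes by 0.19. No member reached 2-fold higher, which 0.307% of all genes did, or 2-fold lower, which 0.373% did. The members are genes of one pathway in the same 2 libraries, not replicates.

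**Figure D2:**
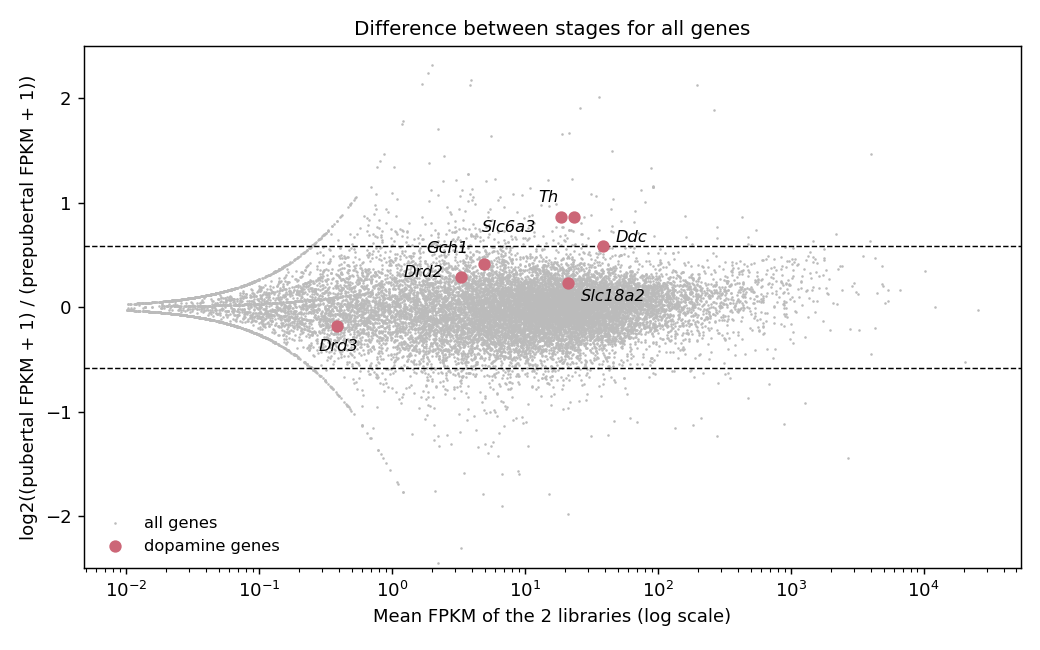
Log2 ratio of FPKM + 1, pubertal over prepubertal, against the mean FPKM of both libraries (log axis) for genes with a mean above 0.01, with the dopamine genes above 0 marked and dashed lines at 1.5-fold. A few genes lie outside the vertical range of the plot. Th and Slc6a3 lie together above the upper line, Ddc lies on it, and the other members lie between the lines.

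The stage ratios of the members were also set against each other in 21 pairs, each as a ratio of ratios with an exact conditional interval from the fragment numbers. The interval left out 1 in 9 pairs and held it in 12. Th and Slc6a3 differed by a factor of 0.996 (interval 0.844 to 1.18). The ratio of Th exceeded that of Ddc by a factor of 1.24 (interval 1.07 to 1.43) and that of Slc18a2 by 1.59 (interval 1.37 to 1.83). Slc6a3 exceeded Slc18a2 by 1.59 as well (interval 1.37 to 1.85), and Drd2 by 1.45 (interval 1.11 to 1.89). Both Th and Slc6a3 thus differed from Slc18a2 and from Drd2 by more than counting error. Transcript length also went with the ratio, as the median log2 ratio of genes was 0.075 in the shortest of 10 length classes and -0.125 in the longest. Centred by length class, the log2 ratios were 0.84 for Th, 0.83 for Slc6a3, 0.28 for Slc18a2 and 0.32 for Drd2. The ratio of Slc18a2 over that of Drd2, 0.910, had an interval of 0.706 to 1.17 that includes 1.

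Slc18a2 is used by all monoamine cells, so the genes of the other monoamines were read beside it. Hdc, the enzyme of histamine synthesis in the tuberomammillary nucleus, had 16.6 FPKM before puberty and 20.3 FPKM at puberty, a ratio of 1.22 (interval 1.09 to 1.37), close in level and in ratio to Slc18a2. Genes of noradrenaline synthesis and uptake were close to 0, as Dbh, Pnmt and Slc6a2 summed to 0.191 FPKM before puberty and 0.155 FPKM at puberty. Of the serotonin genes, Tph2 had 1.02 and 0.715 FPKM, Slc6a4 at most 0.0516 FPKM, and Fev was listed at 0 in both libraries. Tph1, the enzyme of the pineal gland, went from 1.34 FPKM (101 fragments) to 0.203 FPKM (12 fragments), a log2 ratio of -0.96.

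The pterin cofactor list held 8 genes, of which 0 were past 1.5-fold, and 6 were higher and 2 lower. Its median log2 ratio was 0.34. Qdpr, which regenerates the cofactor, went from 62.0 to 83.1 FPKM (ratio 1.34, interval 1.25 to 1.45), and Spr, which makes its last step, from 30.7 to 38.7 FPKM (ratio 1.26, interval 1.13 to 1.42). Pcbd2 was the most abundant of the list, at 138 and 183 FPKM.

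Of the 6 genes of dopamine breakdown, 1 was past 1.5-fold. Aldh1a1, an aldehyde dehydrogenase that is also a marker of a ventral group of midbrain dopamine neurons, had 30.1 FPKM before puberty (1146 fragments) and 58.6 FPKM at puberty (1744 fragments). Its ratio of 1.94 (interval 1.81 to 2.1) is next to those of Th and Slc6a3. The monoamine oxidases lay closer to 1, as Maoa went from 79.1 to 95.95 FPKM (ratio 1.21) and Maob from 73.7 to 81.3 FPKM (ratio 1.10).

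The receptors of the D1 family, which couple to stimulatory G proteins, lay the other way. Drd1 had 3.70 FPKM before puberty (152 fragments) and 2.46 FPKM at puberty (79 fragments), a ratio of 0.664 (interval 0.5003 to 0.879). Drd5 had 2.47 FPKM (60 fragments) and 1.62 FPKM (31 fragments), a ratio of 0.659 with an interval of 0.414 to 1.04 that includes 1. Neither was past 1.5-fold in FPKM + 1. The striatum, which lies near the hypothalamus and is rich in Drd1 and Drd2, was read through 9 marker genes, of which 0 were past 1.5-fold and 4 were higher and 5 lower, with summed levels of 75.9 and 72.8 FPKM. Adora2a, which marks striatal cells with Drd2, had 1.49 and 1.46 FPKM. The part of striatal tissue in the receptor values was not tested.

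Below the receptors, 17 genes of dopamine receptor signalling were listed, of which 0 were past 1.5-fold and 7 were higher and 10 lower, with a median log2 ratio of -0.05. The most abundant was Gnas, the stimulatory G protein subunit, whose main entry had 950 and 839 FPKM. The inhibitory subunit Gnai2 had 125 and 137 FPKM. The channel subunit Kcnj3, through which Drd2 can hyperpolarise neurons, had 16.5 and 12.3 FPKM (ratio 0.744, interval 0.673 to 0.823). Over all 66 listed pathway genes other than the members, 1 was past 1.5-fold higher (Aldh1a1), 1 was past 1.5-fold lower (Tph1), and the median log2 ratio was 0.04.

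**Figure D3:**
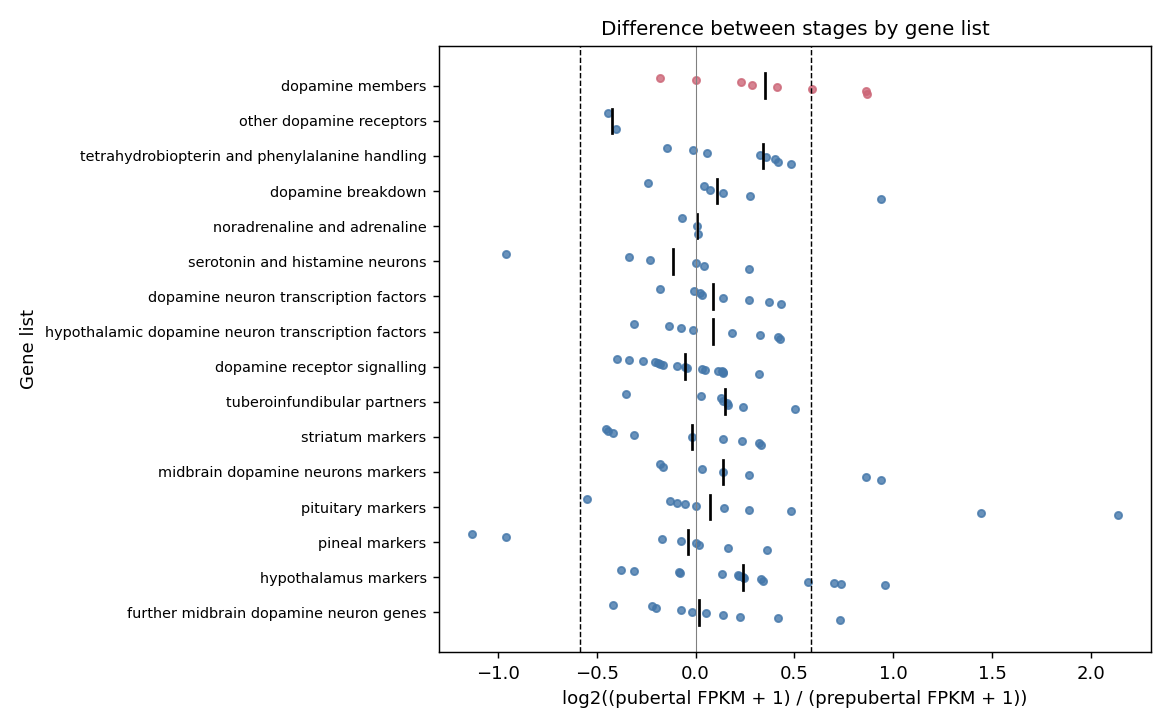
Log2 ratio of FPKM + 1, pubertal over prepubertal, for each gene (point) of the dopamine members, the pathway lists and the tissue marker lists, with a black bar at the median of each list and dashed lines at 1.5-fold. The median of the members is 0.35, that of the pterin cofactor list 0.34, and those of receptor signalling and of striatum markers lie at or just below 0.

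Slc6a3 and Th are high in midbrain dopamine neurons, which lie behind the hypothalamus, so markers of those neurons were read beside them. Of the 7 listed markers, 2 were past 1.5-fold higher, Aldh1a1 and Slc6a3 itself, and the summed level went from 46.5 to 86.3 FPKM, nearly all of it these 2 genes. Pitx3, a factor of midbrain dopamine neurons, was near 0 in both libraries, with 2 fragments in each, 0.0974 and 0.124 FPKM. En1 had 0.485 and 0.793 FPKM (7 and 9 fragments), En2 0.275 and 0.126 FPKM, Foxa1 0.280 and 0.409 FPKM and Ntsr1 2.18 and 1.84 FPKM.

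A further 9 gene names of midbrain dopamine neurons were added after these values were seen. They matched 10 entries, of which 1 was past 1.5-fold higher, and 5 were higher and 5 lower. Chrna6, a nicotinic receptor subunit, had 3.25 FPKM before puberty (101 fragments) and 6.03 FPKM at puberty (147 fragments), a ratio of 1.86 (interval 1.44 to 2.42) like that of Slc6a3. Its partner Chrnb3 had 2.81 and 4.09 FPKM (ratio 1.46, interval 1.15 to 1.85), while Ret had 10.6 and 10.1 FPKM and Sox6 8.33 and 7.01 FPKM. The part of midbrain tissue in the values of Th and Slc6a3 was not tested.

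Among the factors that specify dopamine neurons, 0 of 8 were past 1.5-fold, with a median log2 ratio of 0.09. Nr4a2, a nuclear receptor of the Nr4a family that acts on the Th and Slc6a3 genes, had 4.61 and 4.58 FPKM, a ratio of 0.995 (interval 0.811 to 1.22). Lmx1a had 2.57 and 3.62 FPKM (ratio 1.41, interval 1.13 to 1.76). Of the factors of hypothalamic dopamine neurons, 0 of 8 were past 1.5-fold. Isl1, a factor of arcuate neurons, had 5.69 and 8.01 FPKM (ratio 1.41, interval 1.06 to 1.89), and Dlx1 7.16 and 6.75 FPKM.

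**Figure D4:**
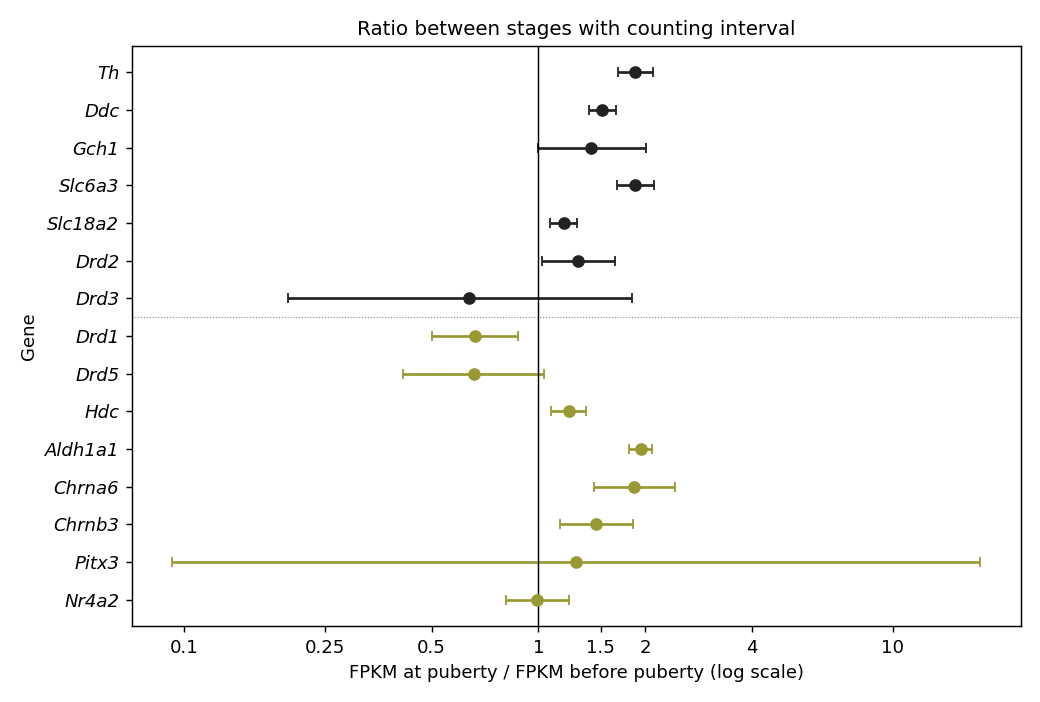
FPKM at puberty over FPKM before puberty (log axis) with 95% counting intervals for the members above 0 (black, above the dotted line) and for other genes named in the text (olive). Th, Slc6a3, Aldh1a1 and Chrna6 lie between 1.86 and 1.94, Slc18a2 and Hdc near 1.2, Nr4a2 at 0.995, and Drd1 and Drd5 below 1.

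On the side of prolactin, 0 of the 8 listed partner genes of tuberoinfundibular neurons were past 1.5-fold, and 7 were higher and 1 lower. Prlr, the prolactin receptor through which these neurons sense prolactin, had 1.96 and 2.27 FPKM over 4 transcripts. Gal, a peptide made in part of these neurons, was the most abundant of the list, at 39.6 and 56.5 FPKM (ratio 1.43, interval 1.25 to 1.66). Pituitary RNA carries Drd2, so 10 pituitary markers were read beside it. Of these, 2 were past 1.5-fold higher, Prl, listed at 0 before puberty and at 3.40 FPKM at puberty (41 fragments), and Gh1, at 0.872 FPKM (10 fragments) and 4.09 FPKM (37 fragments). Pax7, a factor of the intermediate lobe, went the other way, from 0.537 FPKM (14 fragments) to 0.0489 FPKM (1 fragment). The summed level of the list was 33.0 and 45.1 FPKM, most of it Cga, at 24.6 and 29.97 FPKM. The part of pituitary RNA in the level of Drd2 was not tested.

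Pineal cells express Ddc, Tph1 and Drd4, and the 8 pineal markers summed to 3.15 FPKM before puberty and 1.13 FPKM at puberty. Of these, 3 had a higher and 4 a lower FPKM at puberty, and 2 were past 1.5-fold lower, Tph1 and Gngt1, the latter at 1.19 FPKM on 6 fragments before puberty and listed at 0 at puberty. Aanat had 0.155 and 0.0989 FPKM on 4 and 2 fragments. Asmt, the last enzyme of melatonin synthesis, had 0.186 FPKM on 5 fragments before puberty and 0.523 FPKM on 11 at puberty, and Lhx4 0.118 and 0.251 FPKM on 3 and 5. Crx was listed at 0 in both libraries, as Drd4 was. The part of pineal tissue in the value of Ddc was not tested.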

How the data were processed

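Per the labels and the study's methods, RNA of rat hypothalamus was depleted of ribosomal RNA, made into strand-specific libraries and sequenced in pairs. TopHat was the authors' aligner, Scripture and Cufflinks 2.1.1 their assemblers, and the deposited FPKM came from Cuffdiff 2.1.1, with 1 column per stage and no statement of how the rats were combined. The submitters' processing notes name Rnor_5.0, whereas the methods link a later annotation. The authors' deposited comparison columns (log2 ratios, p-values and q-values) and the lncRNA tables were not used.

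FPKM of the mRNA table was summed over the transcripts of a gene. Differences are log2 ratios with a pseudocount of 1, which draws low values towards 0, and a gene counted as past the threshold at 1.5-fold. With 1 library per stage there was no test. Fragment numbers are FPKM times the transcript length less the mean fragment length times the total, both fitted (256 and 252 nt, 20760000 and 16220000 fragments) so that low values of 1407 and 1393 genes with 1 transcript came out whole. Within 0.1 of whole were 95.0% and 94.5% of them. Levels have exact Poisson intervals, stage ratios exact binomial (Clopper-Pearson) intervals and pairs of members conditional exact intervals, at 95%, and a gene with several transcripts has one where its FPKM and fragment ratios differ by less than 5%. The fit was tested on simulated data.

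The members and gene lists were chosen with earlier results of these data known. The genes named are the members, any listed gene past 1.5-fold, the most abundant gene of each list and genes at 0 in both libraries. Other listed genes were named after their values were seen. The values of 3 listed genes are not reported here. Alternatives were a pseudocount of 0.1, the transcript with the highest FPKM, libraries scaled to equal medians or equal Actb, the FPKM of the comparison table, ratios centred in 10 classes of transcript length, a 2-fold threshold, a mean FPKM of at least 1, fragment numbers from the whole length and, added after seeing the data, no pseudocount. Computation ran in Python 3.11.15 with scipy 1.17.1, numpy 2.4.6 and pandas 2.3.3, and figures were drawn with matplotlib 3.10.9.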

Additional observations from a re-analysis of the deposited data

How the results depend on the processing

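With 1 library per stage, the values rest on 2 libraries and the spread between rats is not known. No paired analysis was possible because each stage has 1 library and no test was run. The comparison table and fragment numbers from the whole length are left out of the following count, since the first holds the same member values and the second cannot change a ratio. Of the other 76 values under alternatives, 62 stayed within their counting interval or within 1.5 times the count or median, and 14 did not. Some of the 62 could not have moved. Every member but Ddc has 1 transcript, so the transcript with the highest FPKM gave it the same value. A count of 0 members lower also cannot rise at a higher threshold or with fewer genes. Scaling to equal Actb, which itself went from 763 to 576 FPKM, multiplied the pubertal library by 1.32 and moved the median of all genes by 0.19 and that of the members from 0.35 to 0.69. It gave log2 ratios of 1.26 for Th, 1.25 for Slc6a3, 0.98 for Ddc and 0.62 for Slc18a2, with 6 members and 13 other pathway genes past 1.5-fold higher, beside 10.6% of all genes. At 2-fold, 0 members and 0 other pathway genes were past the threshold in either direction. With a pseudocount of 0.1, 5 other pathway genes were past 1.5-fold higher and 4 lower, beside 5.8% and 6.88% of all genes. The transcript with the highest FPKM gave 2 other pathway genes past 1.5-fold higher, and a mean FPKM of at least 1 left 0 past 1.5-fold lower. Ddc fell below the 1.5-fold line with its most abundant transcript (log2 ratio 0.55) and after centring by transcript length (0.56), which left 2 members past the line. Drd3 kept a negative sign in each alternative, from -0.65 to -0.07. All alternatives reuse its 12 and 6 fragments, and its counting interval covers both directions, so the constant sign does not settle the direction. Fragment numbers from the whole length were 9.64% to 33.7% higher.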
